A study of Mus musculus with 20 samples.

Results

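Vascular endothelial growth factors (VEGFs) are secreted ligands that act through receptor tyrosine kinases on blood and lymphatic vessels, and the 9 genes described here are 4 ligands (Vegfa, Vegfb, Vegfc and Pgf), 3 receptor tyrosine kinases (Flt1, Kdr and Flt4) and 2 co-receptors (Nrp1 and Nrp2). They were chosen by symbol, matched to the Ensembl IDs of a count table of 63318 genes. All 9 were found, and all 9 passed the filter on low counts that left 19741 genes for testing. The matched transcript table lists 42 transcripts of these genes among 163740.

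Poly(A) RNA of mouse heart was sequenced in 16 short-read libraries, 4 in each of 4 groups. The MI group was sampled 72 h after surgery for myocardial infarction, and the RNA came from the core of the infarct together with its periphery. MISham is the sham operation set up for that group, with tissue of the same regions. The IR group had 40 min of "LCA", which the labels do not spell out, followed by reperfusion (renewed blood flow) for 72 h. Its RNA came from the infarct core alone, and IRSham is its own sham operation with the same region. The labels give no strain, sex or age, and none says that libraries came from separate animals, so the p-values speak to variation among the 16 libraries, which may be technical. MI and IR differ both in the injury and in the region taken, and these cannot be told apart. The 4 long-read libraries of the series were not analysed here.

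In textbook terms, VEGF-A is the main driver of blood vessel growth and signals through Kdr (VEGFR2), the chief signalling receptor of blood endothelium. Flt1 (VEGFR1) binds VEGF-A tightly but signals weakly, and its soluble form acts as a decoy, while VEGF-B and placental growth factor (Pgf) bind Flt1 and not Kdr. VEGF-C signals through Flt4 (VEGFR3), the receptor of lymphatic endothelium that blood endothelium also makes where it sprouts, and the neuropilins Nrp1 and Nrp2 hold ligand and receptor together.

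Libraries held 57.22 to 63.07 M counts in MI, against 24.27 to 27.57 M in MISham, and 26.18 to 31.83 M in IR, against 25.52 to 29.76 M in IRSham. The lowest count of any of the 9 genes in a library was 99, for Pgf in MISham replicate 2. Mitochondrially encoded genes held 1.885% to 2.818% of counts in MI, against 7.449% to 8.396% in MISham, and 1.925% to 3.264% in IR, against 6.736% to 7.215% in IRSham. Some libraries stood apart within their group. Cardiomyocyte markers summed to 30600 and 26700 counts per 1000000 (CPM) in IR replicates 1 and 3 and to 16100 and 16900 CPM in IR replicates 2 and 4. Monocyte and macrophage markers summed to 1310 and 1010 CPM in MISham replicates 1 and 3 and to 554 and 627 CPM in MISham replicates 2 and 4. In MI replicate 3 cardiomyocyte markers summed to 25900 CPM, against 14300, 13900 and 19900 CPM in MI replicates 1, 2 and 4. Neutrophil markers summed to 583 CPM in MI replicate 3, against 260, 282 and 284 CPM in MI replicates 1, 2 and 4. All libraries were kept, and results that depend on these are given without them. Heart muscle was present throughout: the summed level of 10 cardiomyocyte markers was 13900 to 25900 CPM in MI, against 71900 to 85500 CPM in MISham, and 16100 to 30600 CPM in IR, against 77800 to 83500 CPM in IRSham, with no marker at 0 in any group. In whole tissue, fewer cells of a type and less RNA per cell cannot be told apart.

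The ligands and receptors moved in both directions after injury. In MI, 4 of the 9 genes were called higher than in MISham and 5 lower, where 34.8% of all tested genes were called higher and 30.2% lower. In IR, 3 of the 9 were called higher than in IRSham and 5 lower, beside 29.5% and 28.2% of all genes. These counts depend on the scaling. In MI 5 were called lower here, 3 with scaling by library size alone and 2 on the summed transcripts per 1000000 (TPM) of each gene. Summed TPM gave 5 higher in MI, Nrp1 among them, and 5 higher and 4 lower in IR. All genes moved with the scaling too: in MI library size alone called 9318 of 19741 genes higher and 4270 lower, against 6861 and 5960 here. Summed TPM put the median gene 0.703 higher in MI and 0.575 higher in IR on log2(TPM + 1). A call is an adjusted p under 0.05 in edgeR's quasi-likelihood test with Benjamini-Hochberg adjustment over all 19741 genes, and CPM here are scaled with edgeR's TMM factors. The median log2 fold change of the 9 genes was -0.23 in MI and -0.18 in IR, against 0.08 and 0.03 over all genes tested. The libraries of the 2 groups did not overlap for 9 of 9 genes in MI, beside 62.8% of all genes, and for 8 of 9 in IR, beside 51.4% of all genes.

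**Figure D1:**
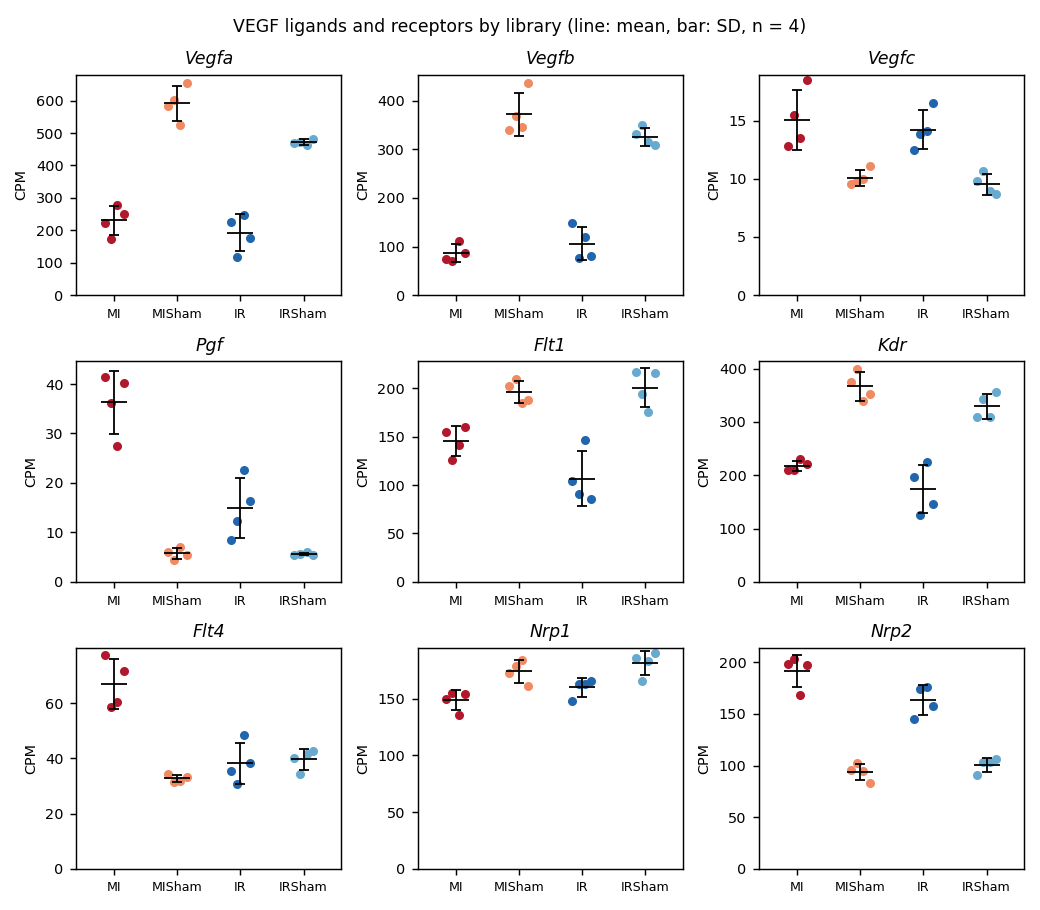
CPM of the 9 genes in each library, with MI, MISham, IR and IRSham along the x axis of every panel; points are libraries, the short line is the group mean and the bar its SD (n = 4). Vegfa and Vegfb are lower and Nrp2 is higher in every injured library than in every library of its own sham group, and Flt4 is higher in MI than in MISham and overlaps its sham in IR. Summed TPM put Flt4 0.51 higher in log2 in IR, where the median gene was 0.575 higher.

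The 2 most abundant ligands fell in both injuries. Vegfa had 222, 172, 279 and 250 CPM in MI, against 584, 602, 526 and 654 CPM in MISham. IR libraries held 224, 118, 248 and 177 CPM, against 469, 474, 464 and 483 CPM in IRSham. Every injured library lay below every sham library, and IR replicate 2 was the lowest. The log2 fold change of Vegfa was -1.36 ± 0.18 (SE) in MI (adjusted p = 6.19e-06) and -1.30 ± 0.18 in IR (adjusted p = 1.37e-05), a level 2.56-fold and 2.47-fold lower than in the sham group. On summed TPM it was called lower by less, at -0.61 ± 0.15 in MI and -0.81 ± 0.15 in IR (limma, adjusted p = 0.00166 and 0.000171). On that scale the median gene was itself 0.703 higher in MI and 0.575 higher in IR.

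Vegfb encodes VEGF-B, a Flt1 ligand made at high level by heart muscle. It had 74.9, 69.8, 112 and 87.6 CPM in MI, against 340, 369, 346 and 436 CPM in MISham. IR libraries held 148, 75.5, 119 and 80.7 CPM, against 331, 350, 315 and 309 CPM in IRSham. The groups were far apart in both comparisons, with IR replicates 1 and 3 above the other IR libraries. Its log2 fold change was -2.11 ± 0.20 in MI (adjusted p = 1.60e-07) and -1.62 ± 0.19 in IR (adjusted p = 3.55e-06), the largest fall among the 9 genes in each injury on the CPM scale. On summed TPM it was -1.38 ± 0.14 in MI and -1.03 ± 0.14 in IR (limma, adjusted p = 3.38e-07 and 1.06e-05).

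The fall of Vegfb was larger than that of Vegfa in MI. The difference Vegfb minus Vegfa in log2 CPM averaged -1.42 ± 0.14 in MI and -0.67 ± 0.09 in MISham (SD, n = 4 each), 0.76 lower in MI with no overlap. The two-sided exact permutation test gave p = 0.0286, the smallest that 4 against 4 libraries allow, and 0.0381 after adjustment over 16 such tests. In IR the same difference averaged -0.85 ± 0.28, against -0.54 ± 0.09 in IRSham, and the groups overlapped (exact permutation p = 0.0857, adjusted 0.105).

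Cardiomyocyte markers fell alongside both ligands: 10 of 10 were called lower in MI and 10 of 10 in IR, beside 30.2% and 28.2% of all genes. The median log2 fold changes of these markers were -2.11 and -1.71, and the part of cardiomyocytes in the ligands' fall was not tested. The genes whose pattern over the 16 libraries was most like that of Vegfb were Mdh1 and Uqcrfs1, which encode cytosolic malate dehydrogenase and a subunit of respiratory complex III. The root mean square difference of their centred log2 CPM from Vegfb was 0.0456 and 0.0482, against a root mean square of 0.99 for Vegfb about its own mean. Cavin4 and Gpat3 were nearest to Vegfa, at 0.127 and 0.151. Cavin4 encodes a caveolar protein of muscle, and its log2 fold change was -1.57 in MI and -1.24 in IR.

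Placental growth factor moved the other way. Pgf had 41.5, 36.1, 27.4 and 40.2 CPM in MI, against 6.14, 4.45, 7.05 and 5.50 CPM in MISham. Its level in IR was 8.53, 12.4, 22.7 and 16.3 CPM, against 5.39, 5.63, 5.96 and 5.44 CPM in IRSham. All injured libraries were above their shams, but the IR libraries were spread over a wide range below every MI library. Its log2 fold change was 2.65 ± 0.24 in MI (adjusted p = 9.25e-08), the largest rise among the 9 genes, and 1.42 ± 0.24 in IR (adjusted p = 7.73e-05).

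The gap between Pgf and Vegfa narrowed in both injuries. Pgf minus Vegfa in log2 CPM averaged -2.66 ± 0.48 in MI and -6.68 ± 0.37 in MISham, a change of 4.01. It averaged -3.71 ± 0.67 in IR and -6.38 ± 0.08 in IRSham, a change of 2.68. Neither pair of groups overlapped, and each gave the smallest exact permutation p of 0.0286 (adjusted 0.0381). In both injuries Pgf was above and Vegfa below every library of its own sham. This outcome was therefore fixed in advance, and the p-value adds no support. Inhbb and Mcam were the genes nearest to Pgf over the 16 libraries, with log2 fold changes of 2.73 and 2.14 in MI and 1.35 and 1.27 in IR. Inhbb encodes a subunit of activins and inhibins, and Mcam an adhesion molecule of vessel walls.

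Vegfc, the main ligand of Flt4, was a low-level gene that rose in both injuries. It had 12.8, 15.5, 13.5 and 18.5 CPM in MI, against 9.55, 9.80, 9.96 and 11.1 CPM in MISham. Its level in IR was 12.5, 13.9, 14.1 and 16.5 CPM, against 9.85, 10.7, 8.98 and 8.66 CPM in IRSham. Every injured library was above every library of its sham, by a narrow margin, and the log2 fold change was 0.58 ± 0.13 in MI (adjusted p = 0.000569) and 0.58 ± 0.13 in IR (adjusted p = 0.000775). Summed TPM gave larger values, 1.10 ± 0.15 in MI and 1.25 ± 0.15 in IR (limma, adjusted p = 4.91e-06 and 2.41e-06). The median gene also rose on that scale, by 0.703 in MI and 0.575 in IR. The main coding transcript, Vegfc-201, differed by 1.06 ± 0.13 in MI and 0.95 ± 0.13 in IR in log2(TPM + 1). The noncoding Vegfc-202 averaged 2.12 TPM in IR, against 0.521 TPM in IRSham, and 0.35 TPM in MI, against 0.17 TPM in MISham.

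Among the receptor tyrosine kinases, Kdr had 210, 210, 230 and 221 CPM in MI, against 375, 400, 340 and 352 CPM in MISham. It had 196, 126, 225 and 147 CPM in IR, against 310, 343, 309 and 356 CPM in IRSham. No injured library reached a sham library. On this scale Kdr fell in MI by 0.75 ± 0.13 in log2 (adjusted p = 8.31e-05) and in IR by 0.93 ± 0.13 (adjusted p = 1.33e-05), whereas on summed TPM the MI difference was -0.07 ± 0.13 (limma, adjusted p = 0.642) and the IR difference -0.33 ± 0.13 (adjusted p = 0.0325).

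Flt1 had 155, 126, 141 and 160 CPM in MI, against 202, 209, 185 and 188 CPM in MISham. It had 104, 90.7, 147 and 85.1 CPM in IR, against 217, 194, 175 and 216 CPM in IRSham. Both injured groups were below their shams, and IR replicate 3 was well above the other IR libraries. Its log2 fold change was -0.43 ± 0.14 in MI (adjusted p = 0.0106), which turned to 0.32 ± 0.14 on summed TPM (limma, adjusted p = 0.0515), and -0.91 ± 0.14 in IR (adjusted p = 2.53e-05), which was -0.39 ± 0.14 on summed TPM (adjusted p = 0.0220). TPM rescales each library to a fixed sum, and on that scale the median gene was 0.703 higher in MI and 0.575 higher in IR on log2(TPM + 1), so values of both receptors lay below the median gene on either scale.

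Flt4 was the only receptor whose response was called different between MI and IR by edgeR with all libraries. It had 77.6, 58.5, 60.5 and 71.6 CPM in MI, against 34.3, 31.6, 31.8 and 33.4 CPM in MISham. In IR it had 35.4, 30.7, 48.4 and 38.2 CPM, against 40.2, 34.2, 41.6 and 42.6 CPM in IRSham. All MI libraries stood clear of every other library, whereas IR and IRSham overlapped. The log2 fold change was 1.03 ± 0.12 in MI (adjusted p = 8.33e-07) and -0.05 ± 0.12 in IR (adjusted p = 0.722), with an interval in IR of -0.29 to 0.18. Summed TPM gave 0.51 ± 0.14 for Flt4 in IR (limma, adjusted p = 0.00308), below the 0.575 of the median gene on that scale.

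**Figure D2:**
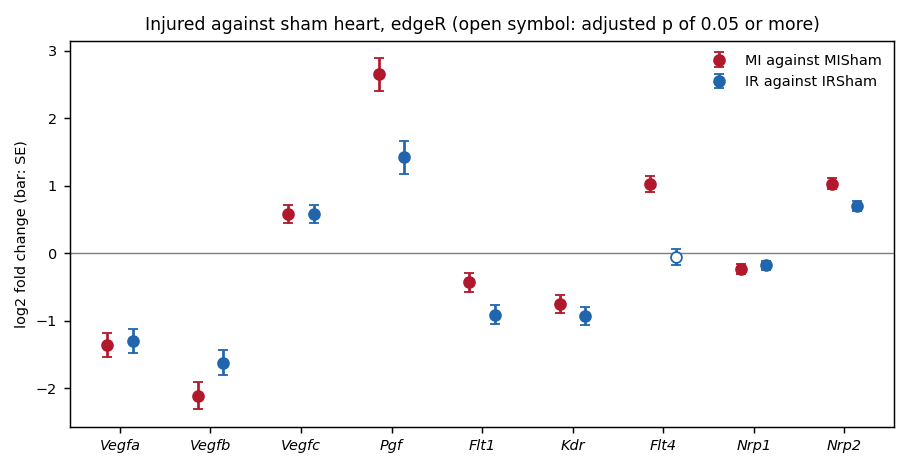
Log2 fold change (y axis) of the 9 genes (x axis, ligands, receptors, co-receptors) in MI against MISham and in IR against IRSham from edgeR, with SE bars; open symbols have an adjusted p of 0.05 or more. The paired symbols lie on the same side of 0 for 8 genes, and Flt4 stands at 1.03 in MI and -0.05 in IR. On summed TPM, Flt1 in MI, Nrp1 in both injuries and Flt4 in IR turn positive, all below the median gene on that scale (0.703 in MI and 0.575 in IR).

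The difference of the 2 responses was tested directly. For Flt4 it was 1.09 ± 0.17 in log2 (adjusted p = 0.0245, interval 0.75 to 1.42), one of 23 genes called higher, 0.117% of those tested, while 15 or 0.0760% were called lower. The call was lost on summed TPM (0.98 ± 0.19, limma, adjusted p = 0.0576) and, with adjusted p of 0.0586 to 0.0726, when MI replicate 1 or 4, MISham replicate 2 or 4, or IRSham replicate 4 was left out, and the difference was then 1.01 to 1.10. Without both IR replicates 1 and 3 it was 1.20 (adjusted p = 0.00438), and without both MISham replicates 1 and 3 it was 1.10 (adjusted p = 0.00909). The sham groups enter this difference, and Flt4 was at -0.27 ± 0.12 in MISham against IRSham (edgeR, adjusted p = 0.310).

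No other of the 9 genes passed that test of the difference. Pgf had the largest estimate, 1.23 ± 0.33 (adjusted p = 0.116, interval 0.58 to 1.87), which was called by DESeq2 (adjusted p = 0.0266) and by edgeR without IR replicate 3 (1.50, adjusted p = 0.0132), without both IR replicates 1 and 3 (1.26, adjusted p = 0.0213) or without both MISham replicates 1 and 3 (1.45, adjusted p = 0.0474). Flt1 had 0.48 ± 0.19 (adjusted p = 0.263), called without IR replicate 3 (0.68, adjusted p = 0.0188) or without both IR replicates 1 and 3 (0.72, adjusted p = 0.0210), and Nrp2 had 0.33 ± 0.12 (adjusted p = 0.209). For Vegfc the interval of the difference was -0.35 to 0.35 and for Vegfa -0.55 to 0.45, so differences within these bounds remain possible. The bounds are not limits of detection, as the larger estimate of Pgf was not called either.

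Flt4 is best known from lymphatic vessels, so lymphatic markers are given beside it. In MI, 2 of 7 were called higher than in MISham and 5 lower, with a median log2 fold change of -1.16, and in IR 2 were called higher and 5 lower, with a median of -1.20. Their summed level was 119 to 128 CPM in MI, against 207 to 229 CPM in MISham, and 91.9 to 137 CPM in IR, against 200 to 251 CPM in IRSham. Of all genes tested, 34.8% were called higher and 30.2% lower in MI, and 29.5% and 28.2% in IR. The 2 lymphatic markers called higher are near that share in each injury. Prox1, a transcription factor of lymphatic endothelium that heart muscle also makes, had a log2 fold change of -2.31 ± 0.21 in MI, and Lyve1, a receptor of lymphatic endothelium and some macrophages, -1.09 ± 0.27 (adjusted p = 0.00192). Pdpn, a lymphatic marker that activated stromal cells also make, was 1.92 ± 0.31 (adjusted p = 8.35e-05). Klhl2 and Ednrb were nearest to Flt4 over the libraries, both at 0.171, with log2 fold changes of 0.73 and 0.74 in MI and -0.01 and 0.11 in IR; Ednrb is an endothelin receptor.

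The co-receptors differed from each other. Nrp2 had 198, 203, 168 and 197 CPM in MI, against 95.9, 102, 95.0 and 83.1 CPM in MISham. It had 145, 174, 176 and 158 CPM in IR, against 90.4, 103, 103 and 106 CPM in IRSham. Every injured library was above every sham library, and the log2 fold change was 1.03 ± 0.08 in MI (adjusted p = 1.79e-08) and 0.70 ± 0.08 in IR (adjusted p = 1.81e-06). On summed TPM it was 1.64 ± 0.12 in MI and 1.26 ± 0.12 in IR (limma, adjusted p = 1.87e-08 and 4.65e-07).

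Nrp1 moved little. It had 150, 155, 136 and 154 CPM in MI, against 173, 179, 184 and 161 CPM in MISham. It had 148, 163, 163 and 166 CPM in IR, against 186, 166, 183 and 190 CPM in IRSham. Every injured library was below its sham libraries, but the groups nearly touched in IR. The log2 fold change of -0.23 ± 0.07 in MI (adjusted p = 0.00661) and -0.18 ± 0.07 in IR (adjusted p = 0.0310) turned to 0.47 ± 0.11 in both on summed TPM (limma, adjusted p = 0.000987 and 0.00107) and to 0.08 and 0.11 with scaling by library size alone. These values lay below the median gene, which was at 0.703 in MI and 0.575 in IR on summed TPM. By library size alone the median gene was at 0.393 and 0.323. In IR the call was also lost without IR replicate 1 or without IRSham replicate 1, 3 or 4 (adjusted p = 0.0609 to 0.0884), without both IR replicates 1 and 3 (0.144), with no filter on low counts (0.112) and with its own sham alone in the fit (0.0588), so that 9 of 19 alternatives kept it. In MI it was lost without both MISham replicates 1 and 3 (-0.19, adjusted p = 0.0739). An unannotated locus antisense to Nrp1 held 502 to 708 raw counts in MI, against 192 to 251 in MISham. In IR it held 265 to 337 raw counts, against 226 to 291 in IRSham. These values are not scaled for depth: MI libraries held 57.22 to 63.07 M counts, against 24.27 to 27.57 M in MISham. Raw counts alone therefore do not show a change of this locus in MI. Without the strand setting, reads of the overlapping genes cannot be told apart. The antisense locus of Nrp2 held at most 4 counts in any library.

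Between the sham operations, MISham against IRSham, none of the 9 genes was called by edgeR or DESeq2, beside 2.34% of all genes called higher and 0.866% lower. At an unadjusted p under 0.05 edgeR gave 1, Flt4 (log2 fold change -0.27 ± 0.12, adjusted p = 0.310). Vegfa was at 526 to 654 CPM in MISham and 464 to 483 CPM in IRSham without overlap, with a log2 fold change of 0.32 ± 0.18 (adjusted p = 0.449).

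Levels can be compared between genes only per length, so TPM summed over protein-coding transcripts were used for the order of the 9 genes. In MI the levels averaged 98.9 ± 17.6 TPM for Vegfb, 87.5 ± 12.5 for Vegfa, 55.3 ± 5.64 for Nrp1, 35.7 ± 1.04 for Kdr, 33.5 ± 4.32 for Nrp2, 25.5 ± 4.91 for Pgf, 24.3 ± 2.31 for Flt1, 11.5 ± 2.02 for Flt4 and 7.80 ± 1.56 for Vegfc (SD, n = 4). In MISham they averaged 260 ± 17.1 TPM for Vegfb, 128 ± 5.27 for Vegfa, 39.2 ± 3.72 for Nrp1, 37.7 ± 4.88 for Kdr, 20.1 ± 1.53 for Flt1, 10.1 ± 1.21 for Nrp2, 3.46 ± 0.10 for Flt4, 3.04 ± 0.041 for Vegfc and 2.75 ± 0.612 for Pgf. Pgf, last in MISham, stood beside Flt1 in MI. Neighbours whose libraries overlapped in level were Vegfb and Vegfa, Kdr and Nrp2, Nrp2 and Pgf, and Pgf and Flt1 in MI, and Nrp1 and Kdr, and Vegfc and Pgf in MISham.

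In IR the levels averaged 119 ± 28.9 TPM for Vegfb, 70.2 ± 16.1 for Vegfa, 59.5 ± 7.83 for Nrp1, 28.5 ± 6.68 for Kdr, 28.4 ± 4.50 for Nrp2, 17.5 ± 4.38 for Flt1, 8.91 ± 4.28 for Pgf, 7.57 ± 2.00 for Vegfc and 6.65 ± 1.35 for Flt4. In IRSham they averaged 240 ± 12.5 TPM for Vegfb, 108 ± 4.36 for Vegfa, 41.7 ± 3.53 for Nrp1, 35.6 ± 2.52 for Kdr, 21.3 ± 2.56 for Flt1, 11.1 ± 0.756 for Nrp2, 4.32 ± 0.594 for Flt4, 2.99 ± 0.289 for Vegfc and 2.07 ± 0.456 for Pgf. Neighbours whose libraries overlapped were Vegfa and Nrp1, Kdr and Nrp2, Nrp2 and Flt1, Pgf and Vegfc, and Vegfc and Flt4 in IR, and Nrp1 and Kdr in IRSham.

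Because Flt1, Kdr and Flt4 are chiefly endothelial, and the neuropilins partly so, the receptors were also set against 16 endothelial markers in the same library. In MI, 8 of these markers were called higher than in MISham and 4 lower (median log2 fold change 0.21), and in IR 1 was called higher than in IRSham and 6 lower (median -0.04). Their summed level was 2480 to 2590 CPM in MI, against 2300 to 2550 CPM in MISham, and 1900 to 2470 CPM in IR, against 2260 to 2650 CPM in IRSham. Of all genes tested, 34.8% were called higher and 30.2% lower in MI, and 29.5% and 28.2% in IR. The 4 endothelial markers called lower in MI are near that share. The markers did not move as one: in MI Pecam1, a junction protein, rose by 0.86 ± 0.09 and Cdh5, VE-cadherin, by 0.78 ± 0.11, whereas Aqp1, a water channel, was at -1.54 ± 0.14 and Fabp4, a fatty acid carrier of capillaries, at -0.67 ± 0.11.

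Relative to the mean log2 CPM of these markers, Kdr and Flt1 were lower and Nrp2 was higher in both injuries. Kdr averaged 0.86 ± 0.07 in MI and 1.74 ± 0.06 in MISham, and 0.76 ± 0.25 in IR and 1.54 ± 0.17 in IRSham (SD, n = 4 each). Flt1 averaged 0.27 ± 0.16 in MI and 0.83 ± 0.05 in MISham, and 0.06 ± 0.20 in IR and 0.82 ± 0.18 in IRSham. Nrp2 averaged 0.67 ± 0.11 in MI and -0.23 ± 0.11 in MISham, and 0.71 ± 0.17 in IR and -0.17 ± 0.19 in IRSham. None of these 6 pairs of groups overlapped, and each gave an exact permutation p of 0.0286 (adjusted 0.0381). Separation was common: in CPM, groups did not overlap for 62.8% of all genes in MI and 51.4% in IR. No such share was taken for levels relative to the markers.

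Flt4 and Nrp1 were set apart from their shams in MI alone. Flt4 averaged -0.85 ± 0.20 in MI and -1.74 ± 0.07 in MISham, 0.90 higher (exact permutation p = 0.0286, adjusted 0.0381). In IR it averaged -1.41 ± 0.13, against -1.51 ± 0.24 in IRSham, with overlap (exact permutation p = 0.486). Nrp1 averaged 0.31 ± 0.08 in MI and 0.67 ± 0.10 in MISham (exact permutation p = 0.0286, adjusted 0.0381), and 0.68 ± 0.18 in both IR and IRSham (p = 1). Whether the MI and IR differences of these relative levels differ from each other was not tested.

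**Figure D3:**
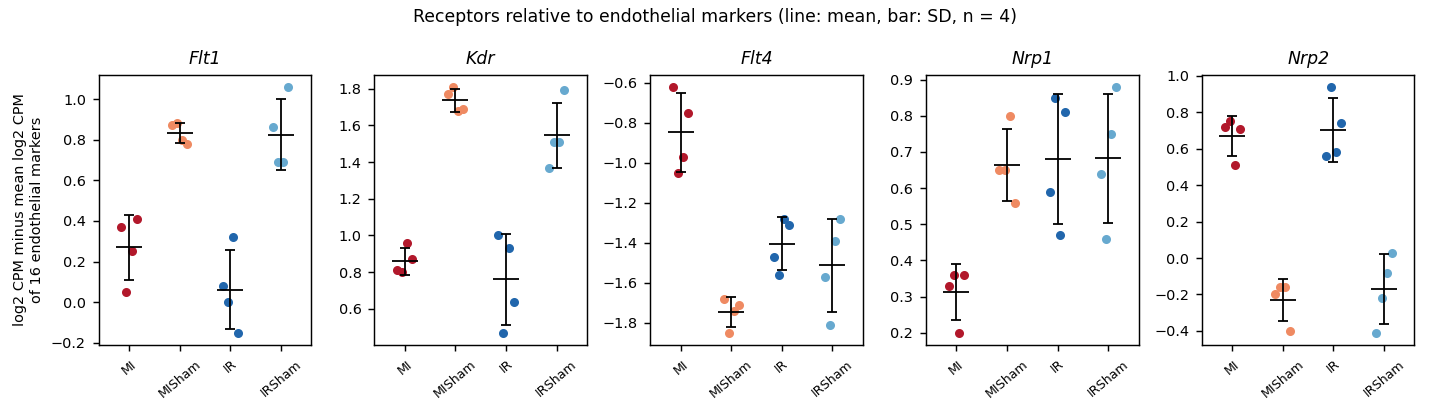
Log2 CPM of each receptor minus the mean log2 CPM of 16 endothelial markers (y axis) in the libraries of MI, MISham, IR and IRSham (x axis); points are libraries, the short line is the mean and the bar the SD (n = 4). Flt1 and Kdr sit lower and Nrp2 sits higher in each injured group than in its sham, while Flt4 is raised in MI and overlaps its sham in IR.

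The 2 blood endothelial receptors also shifted against each other in MI. Flt1 minus Kdr in log2 CPM averaged -0.59 ± 0.16 in MI and -0.90 ± 0.02 in MISham, 0.31 higher without overlap (exact permutation p = 0.0286, adjusted 0.0381). It averaged -0.70 ± 0.20 in IR and -0.72 ± 0.14 in IRSham (exact permutation p = 0.857). Plxna2 and Adgrf5 were nearest to Flt1 and Mgll and Gfod1 nearest to Kdr. Their root mean square differences were 0.105, 0.107, 0.109 and 0.121. Adgrf5 is an adhesion receptor of endothelium and lung epithelium. Lama4, a laminin chain of vessel basement membranes, and Nono were nearest to Nrp2 (0.0796 and 0.0827), Mrgbp and Wdr7 to Nrp1 (0.0691 and 0.0756), and Acvr1 and Nup62 to Vegfc (0.119 and 0.123).

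Alternative splicing sets how far VEGF-A travels and whether Flt1 is anchored in the membrane, and the stretches that tell the described transcripts apart are shown here for that reason. The sequences are from GENCODE M21 transcripts on GRCm38, 5′ to 3′ on the coding strand. Capitals mark coding bases that one transcript has and the other lacks, and lower case marks the 15 bases on each side, or on the 5′ side alone for Flt1-203, whose stretch ends at the stop codon. Coding bases of exon 1 that differ are not shown. Vegfa-201 is annotated with 146 residues, Vegfa-202 with 368 and Vegfa-207 with 392. The stretch shown for Vegfa-202 is therefore not its only coding difference from Vegfa-201.
Vegfa-207, absent from Vegfa-202: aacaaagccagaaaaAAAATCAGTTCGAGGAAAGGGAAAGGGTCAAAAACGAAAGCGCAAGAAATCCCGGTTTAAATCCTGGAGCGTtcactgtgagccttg
Vegfa-202, absent from Vegfa-201: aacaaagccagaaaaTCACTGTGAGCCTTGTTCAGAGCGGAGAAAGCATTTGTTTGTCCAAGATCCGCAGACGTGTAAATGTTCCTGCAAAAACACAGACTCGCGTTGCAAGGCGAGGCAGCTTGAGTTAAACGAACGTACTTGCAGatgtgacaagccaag
Flt1-203, absent from Flt1-202: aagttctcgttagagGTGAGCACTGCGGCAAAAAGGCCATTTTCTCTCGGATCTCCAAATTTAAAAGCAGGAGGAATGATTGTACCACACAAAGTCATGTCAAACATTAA

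The first stretch is exon 6 of 8 in Vegfa-207, 72 bases or 24 codons at chr17:46022277-46022348 on the minus strand. It encodes part of the heparin-binding domain that ties the longest common form, VEGF188, to cell surfaces and matrix. The second is exon 6 of 7 in Vegfa-202, 132 bases or 44 codons at chr17:46020991-46021122 on the minus strand. It is the heparin- and neuropilin-binding exon of VEGF164, and VEGF120, encoded by Vegfa-201, lacks both stretches and diffuses freely. The third is the end of Flt1-203, 95 bases at chr5:147639130-147639224 on the minus strand, read on from the splice site of exon 13 into the intron. It replaces the transmembrane and kinase parts, so that Flt1-203 encodes the soluble decoy of 688 residues where Flt1-202 encodes the receptor of 1333 residues.

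Transcript levels were tested with limma on log2(TPM + 1), for 40489 transcripts with a mean of at least 1 TPM, of which 12 belong to Vegfa, Flt1 and Nrp1. In MI, 4 of the 12 were called higher and 5 lower, beside 49.0% and 10.1% of all transcripts. In IR, 1 was called higher and 6 lower, beside 42.5% and 9.23%. The median log2 difference of all transcripts was 0.604 in MI and 0.48 in IR.

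The heparin-binding forms of VEGF-A fell. Vegfa-202, the VEGF164 form, had 37.4, 31.8, 51.2 and 38.2 TPM in MI, against 65.3, 74.6, 66.3 and 66.1 TPM in MISham. In IR it had 28.7, 17.9, 47.8 and 28.5 TPM, against 55.1, 58.8, 56.7 and 50.7 TPM in IRSham. No groups overlapped, with log2 differences of -0.78 ± 0.21 in MI (adjusted p = 0.00517) and -0.91 ± 0.21 in IR (adjusted p = 0.00232). Vegfa-207, the VEGF188 form, averaged 39.2 ± 6.52 TPM in MI and 56.0 ± 4.31 TPM in MISham, and 33.2 ± 7.27 TPM in IR and 47.1 ± 6.74 TPM in IRSham. It was called lower in MI (-0.52 ± 0.16, adjusted p = 0.0122) and in IR (-0.51 ± 0.16, adjusted p = 0.0159). The IR call was lost without IR replicate 2 (adjusted p = 0.0533) or IRSham replicate 1 (adjusted p = 0.0515).

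The short form was not called lower in either injury. Vegfa-201, the VEGF120 form, had 9.19, 7.80, 8.95 and 8.39 TPM in MI, against 5.68, 0.659, 2.99 and 6.58 TPM in MISham. In IR it had 3.38, 7.65, 4.47 and 9.25 TPM, against 1.75, 3.0, 4.84 and 9.74 TPM in IRSham. MI lay above MISham, whereas IR and IRSham overlapped widely. The log2 difference was 1.16 ± 0.46 in MI (adjusted p = 0.0424) and 0.41 ± 0.46 in IR (adjusted p = 0.485). The MI call was lost with a pseudocount of 0.1, with no filter on low TPM, and without any 1 of the 4 MI replicates or MISham replicate 2 or 3 (adjusted p = 0.0514 to 0.150). Without MISham replicate 2, the lowest library, the difference was 0.71, and without any 1 of the other libraries named it was 1.13 to 1.20.

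As a share of the 3 coding forms described above, Vegfa-201 held 10.6%, 11.1%, 9.02% and 8.99% in MI, against 4.30%, 0.505%, 2.49% and 5.08% in MISham. Vegfa-203 and Vegfa-204 are also annotated as coding, averaged at most 0.29 TPM in any group and were left out of this share. The groups did not overlap, and the share was 6.82 points higher in MI (exact permutation p = 0.0286, adjusted over 6 such shares 0.0571). In IR it averaged 9.60% ± 5.57, against 4.48% ± 3.15 in IRSham (SD, n = 4 each), with overlap (exact permutation p = 0.171). The annotated lengths of Vegfa-201, Vegfa-202 and Vegfa-207 are 2765, 3451 and 1973 bases. The stretches shown above do not account for these gaps, so the share does not measure the use of those exons alone. These shares of coding forms were added after the data had been seen.

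Transcripts annotated as retained introns held a large part of the TPM of Vegfa: all transcripts together averaged 180 ± 24.2 TPM in MI and 272 ± 5.73 TPM in MISham, and 142 ± 36.7 TPM in IR and 244 ± 15.9 TPM in IRSham. Of this, coding forms held 87.5 TPM in MI and 128 TPM in MISham, and 70.2 TPM in IR and 108 TPM in IRSham. Of the 5 tested, Vegfa-205, Vegfa-206 and Vegfa-208 were called lower in both injuries and Vegfa-209 in IR, while Vegfa-210 was called higher in MI (1.06 ± 0.27, adjusted p = 0.00379).

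**Figure D4:**
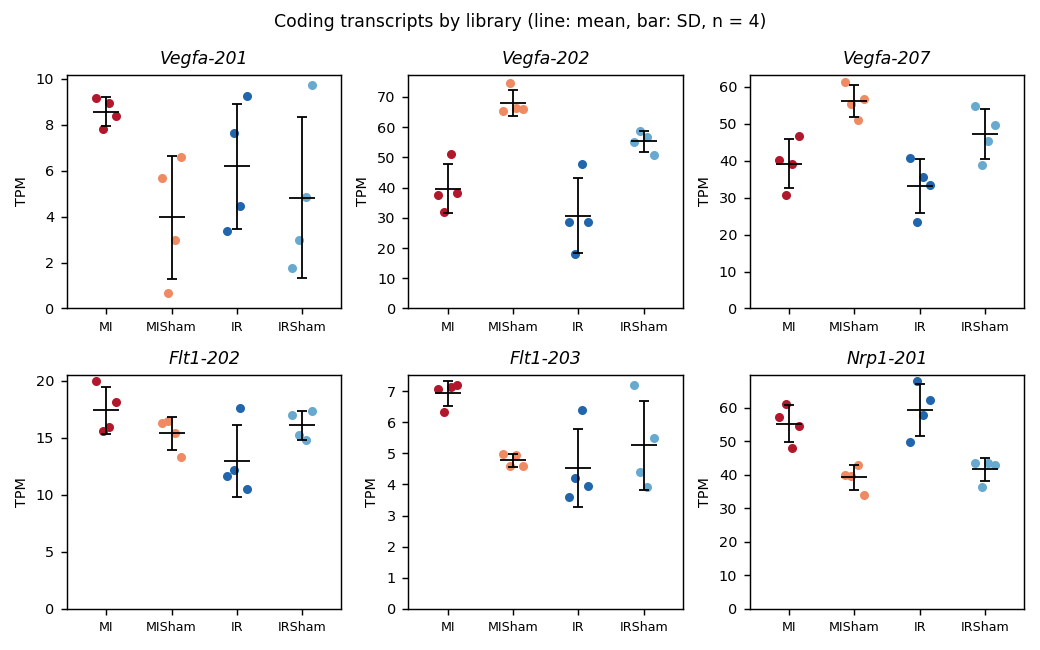
TPM (y axis) of 3 coding transcripts of Vegfa, both of Flt1 and the one of Nrp1 in the libraries of MI, MISham, IR and IRSham (x axis); points are libraries, the short line is the mean and the bar the SD (n = 4). Vegfa-202 and Vegfa-207 are on average lower in both injured groups, Vegfa-201 and Flt1-203 are higher in MI than in MISham, and Nrp1-201 is higher in both, opposite to Nrp1 in CPM.

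The soluble form of Flt1 was called higher in MI on the TPM scale and the membrane form was not. Flt1-203, the soluble form, had 7.06, 6.34, 7.13 and 7.19 TPM in MI, against 4.98, 4.60, 4.95 and 4.60 TPM in MISham, with no overlap. The log2 difference was 0.46 ± 0.16 (adjusted p = 0.0266), below that of the median transcript, and the call was lost without MI replicate 1, 3 or 4, without MISham replicate 2 or 4 and with no filter on low TPM (adjusted p = 0.0529 to 0.0563). In IR it averaged 4.54 ± 1.26 TPM and in IRSham 5.25 ± 1.45 TPM (adjusted p = 0.398). Flt1-202, the membrane form, averaged 17.4 ± 2.07 TPM in MI and 15.4 ± 1.44 TPM in MISham (adjusted p = 0.303), and 13.0 ± 3.16 TPM in IR and 16.1 ± 1.24 TPM in IRSham (adjusted p = 0.0664, and 0.00339 without IR replicate 3, where it fell by 0.46).

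The soluble share of both forms was 26.1%, 28.9%, 30.9% and 28.4% in MI, against 23.4%, 21.8%, 24.3% and 25.7% in MISham. The groups lay next to each other without overlap, 4.77 points apart (exact permutation p = 0.0286, adjusted over the 6 shares 0.0571). In IR the share averaged 25.9% ± 1.59, against 24.3% ± 3.87 in IRSham (exact permutation p = 0.486). Over the 16 libraries the soluble share lay between 20.9% and 30.9%.

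Nrp1-201, the only annotated coding transcript of Nrp1 in the table, encodes 923 residues and held 97.3% ± 0.225 of the gene's TPM in MI and 96.1% ± 0.762 in MISham, and 97.1% ± 1.01 in IR and 95.1% ± 0.81 in IRSham. It had 57.4, 61.2, 47.9 and 54.7 TPM in MI, against 40.0, 39.7, 43.1 and 34.1 TPM in MISham. All MI libraries were above MISham. The log2 difference was 0.48 ± 0.11 in MI (adjusted p = 0.00163) and 0.50 ± 0.11 in IR (adjusted p = 0.00166), both opposite in sign to the difference in CPM. The MI value was below that of the median transcript and the IR value close to it.

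Each transcript's percentage of the summed TPM of its gene was tested for 25606 transcripts, with a call at an adjusted p under 0.05 and a change of at least 10 points. None of the shares of Vegfa and Flt1 was called by limma in MI or IR, beside 5.91% of all shares in MI and 3.88% in IR. At an unadjusted p under 0.05 there was 1 in MI, Flt1-202 (-7.68 ± 2.23 points, adjusted p = 0.0524), and 1 in IR, Vegfa-207 (4.40 ± 1.88 points, adjusted p = 0.218). Nrp1 has a single transcript with at least 5% and could not be tested.

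Other ligands and co-receptors also have coding forms that differ, and their distinguishing stretches are shown for comparison, with capitals as before.
Vegfb-201, absent from Vegfb-202: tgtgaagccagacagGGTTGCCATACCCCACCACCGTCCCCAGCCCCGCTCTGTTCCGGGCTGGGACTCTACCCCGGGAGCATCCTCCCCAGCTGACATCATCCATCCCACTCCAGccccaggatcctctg
Nrp2-202, absent from Nrp2-204: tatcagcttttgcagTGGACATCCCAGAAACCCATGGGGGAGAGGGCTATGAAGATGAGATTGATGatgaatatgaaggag

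The Vegfb stretch is 101 bases of exon 6 at chr19:6985496-6985596 on the minus strand of GRCm38, and its length shifts the reading frame. Vegfb-201 encodes the longer, freely soluble VEGF-B of 207 residues, while Vegfb-202 encodes the heparin-binding VEGF-B of 188 residues. Vegfb-202 held 38.1%, 40.2%, 44.5% and 40.1% of both forms in MI, against 46.7%, 48.7%, 50.5% and 48.7% in MISham. The groups did not overlap, and the share was lower by 7.91 points (exact permutation p = 0.0286, adjusted over the 6 shares 0.0571). In the test over all transcripts its share of the gene changed by -8.37 ± 1.83 points (adjusted p = 0.0123), under the 10 points set for a call. In IR it averaged 44.3% ± 2.14, against 48.3% ± 1.28 in IRSham (exact permutation p = 0.0571, adjusted 0.0857).

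The Nrp2 stretch is exon 16 of 17 in Nrp2-202, 51 bases or 17 codons at chr1:62812534-62812584 on the plus strand of GRCm38, close to the membrane-spanning part. Nrp2-204 lacks it and was the most abundant form, at 11.8 ± 0.913 TPM in MI and 4.53 ± 0.98 TPM in MISham, and 9.74 ± 2.39 TPM in IR and 5.33 ± 0.374 TPM in IRSham. Its share of Nrp2 averaged 34.0% ± 3.98 in IR and 47.8% ± 4.30 in IRSham, a difference of -13.8 ± 3.08 points that was called (adjusted p = 0.0194). In MI it averaged 35.4% ± 3.25, against 44.6% ± 5.48 in MISham (-9.16 ± 3.08 points, adjusted p = 0.0925). Nrp2-205, which encodes 901 residues, held 28.4% ± 2.14 in IR and 21.1% ± 3.68 in IRSham (adjusted p = 0.0758).

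Genes around the 9 were counted in 7 lists of the pathway, against a median log2 fold change over all genes of 0.0829 in MI and 0.0323 in IR. Over all genes 34.8% were called higher and 30.2% lower in MI, and 29.5% higher and 28.2% lower in IR, and each list's count stands beside these shares. Of 8 tested genes for the further ligand Vegfd and for the processing of VEGF-C, 5 were called higher and 1 lower in MI (median 0.55), and 4 higher and 2 lower in IR (median 0.42). Adamts2, a procollagen protease, had log2 fold changes of 1.77 ± 0.18 in MI and 1.66 ± 0.18 in IR, and its relative Adamts14 had 1.51 ± 0.29 and 1.06 ± 0.29. Adamts3, the protease that activates VEGF-C, fell by 0.96 ± 0.21 in MI (adjusted p = 0.00058) and by 0.68 ± 0.21 in IR (adjusted p = 0.00989). Vegfd, a ligand of Flt4, rose by 1.30 ± 0.17 in MI and 1.07 ± 0.16 in IR.

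Receptor partners and inhibitors mostly rose, with 15 of 19 called higher and 4 lower in MI (median 1.28) and 12 higher and 4 lower in IR (median 0.97). Ccn2, a matricellular protein that binds VEGF-A, averaged 563 CPM in MI, against 53.3 CPM in MISham, and 444 CPM in IR, against 63.7 CPM in IRSham. Thbs1, an inhibitor of vessel growth, had log2 fold changes of 3.23 ± 0.65 and 2.54 ± 0.63, and the integrin Itgb3 had 3.01 ± 0.36 and 1.64 ± 0.34, in MI and IR. The members that fell included Gpc1, a heparan sulphate carrier (-1.39 ± 0.17 in MI and -1.13 ± 0.17 in IR), Lrg1 (-1.10 ± 0.27 and -1.74 ± 0.27) and Ptprb, the endothelial phosphatase VE-PTP (-0.51 ± 0.09 and -0.56 ± 0.09). Itgb3 is also a platelet gene, and the summed level of 4 tested platelet markers was 203 to 254 CPM in MI, against 19.2 to 37.3 CPM in MISham, and 134 to 184 CPM in IR, against 34.2 to 49.8 CPM in IRSham; a further listed marker, Gp1bb, was at 0 in every library, and their part in this was not tested.

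Intracellular signalling genes were mixed, with 16 of 32 called higher and 11 lower in MI (median 0.33) and 15 higher and 10 lower in IR (median 0.10). The counts of lower genes are near the shares over all genes, 30.2% in MI and 28.2% in IR. Sphk1, Src and Plcg2 had log2 fold changes of 1.95 ± 0.26, 1.69 ± 0.17 and 1.52 ± 0.15 in MI and of 1.22 ± 0.26, 1.35 ± 0.17 and 1.27 ± 0.15 in IR. Pik3r1, a regulatory subunit of PI3-kinase, was at -1.03 ± 0.12 and -0.93 ± 0.12, Prkd1 at -0.82 ± 0.17 and -0.83 ± 0.17, and the adaptor Gab1 at -0.76 ± 0.10 and -0.55 ± 0.10.

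Of the genes known to respond to VEGF in endothelium, 17 of 19 were called higher and 1 lower in MI (median 1.05), and 13 higher and 1 lower in IR (median 0.70). Plaur, the urokinase receptor, had log2 fold changes of 2.63 ± 0.46 and 1.27 ± 0.44, the chemokine receptor Cxcr4 had 2.21 ± 0.14 and 1.96 ± 0.14, and the guidance receptor Unc5b had 1.95 ± 0.10 and 1.46 ± 0.10. F3, tissue factor, was the member that fell (-1.74 ± 0.16 and -1.48 ± 0.16). Plaur and Cxcr4 are also made by leukocytes. Markers of monocytes and macrophages were called higher for 10 of 10 in MI and 9 of 10 in IR, at a summed 2470 to 3460 CPM in MI, against 554 to 1310 CPM in MISham, and 2750 to 4800 CPM in IR, against 993 to 1640 CPM in IRSham. Neutrophil markers were called higher for 6 of 7 in MI and 3 of 7 in IR, where 34.8% and 29.5% of all genes were called higher. The part of these cells in the list was not tested.

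Hypoxia-inducible factors (HIFs) are the best known activators of Vegfa. Among 9 genes encoding HIFs and their regulators, 1 was called higher and 3 lower in MI (median -0.30) and 1 higher and 5 lower in IR (median -0.87), and the 3 lower in MI are near the 30.2% over all genes. Hif1a rose by 0.74 ± 0.10 in MI and 0.56 ± 0.10 in IR, whereas Epas1, which encodes HIF-2α, was at -1.14 ± 0.12 and -1.10 ± 0.12, and the oxygen sensor Egln1 at -1.89 ± 0.17 and -1.78 ± 0.17. Of 15 HIF targets other than Vegfa, 7 were called higher and 4 lower in MI (median 0.43), and 6 higher and 4 lower in IR (median 0.10), beside 34.8% and 30.2% of all genes in MI and 29.5% and 28.2% in IR. Car9, a carbonic anhydrase, had log2 fold changes of 2.78 ± 0.31 and 2.11 ± 0.31 at 0.843 to 6.23 CPM on group average, and the glucose transporter Slc2a1 had 1.7 ± 0.16 and 0.50 ± 0.16, a difference of 1.20 ± 0.23 that was called (edgeR, adjusted p = 0.0431). Pdk1, Higd1a and Mxi1 were at -1.23 ± 0.14, -0.96 ± 0.08 and -0.76 ± 0.08 in MI.

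Of 13 genes that regulate splicing or stability of VEGF RNA, 7 were called higher and 2 lower in MI (median 0.34), and 8 higher and 2 lower in IR (median 0.24). U2af2, Khdrbs1 and Srsf1 rose by 0.73 ± 0.10, 0.67 ± 0.06 and 0.52 ± 0.07 in MI and by 0.34 ± 0.10, 0.29 ± 0.06 and 0.25 ± 0.07 in IR. The splicing kinase Clk1 fell by 0.55 ± 0.09 in MI (adjusted p = 3.18e-05) and was at -0.15 ± 0.09 in IR (adjusted p = 0.173), and Srsf5 was at -0.18 ± 0.07 in MI and -0.29 ± 0.07 in IR.

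Further cell markers are given for the ligands that stromal and mural cells also make. Fibroblast markers were called higher for 5 of 8 and lower for 2 in MI (median 0.67), and higher for 6 of 8 in IR (median 0.95), at a summed 12300 to 15000 CPM in MI, against 1570 to 4910 CPM in MISham, and 15200 to 17500 CPM in IR, against 3360 to 4640 CPM in IRSham. Pericyte and smooth muscle markers were called higher for 5 and lower for 4 of 9 in MI, and higher for 3 and lower for 4 in IR. Shares over all genes were 34.8% higher and 30.2% lower in MI, and 29.5% and 28.2% in IR. Near them are the 2 fibroblast markers lower in MI and the 3 pericyte and smooth muscle markers higher in IR. Of the 4 tested platelet markers 3 were called higher in MI and 2 in IR, and of 5 erythroid markers 0 were called in MI and 1 higher in IR. The part of these cells in the levels of Pgf, Vegfc and Nrp2 was not tested.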

How the data were processed

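Heart RNA of 16 libraries was compared. The deposited gene table holds raw counts and the deposited transcript table TPM, per the file headers. Per the submitters' processing notes, the build was GRCm39 and the tools were kallisto 0.50.1, featureCounts 2.0.1, HISAT2 2.2.1 and SAMtools 1.7. What each tool did, whether strand was used and which annotation was counted are not given in the sources used here. 2 value columns that name no sample were not used.

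Symbols came from GENCODE M21. Genes were tested with edgeR 4.0.16 in R 4.3.3 (TMM, filterByExpr with a minimum count of 10 and total of 15, robust quasi-likelihood fit, 1 mean per group), and transcripts with limma 3.58.1. Shares needed a summed TPM of at least 5 and 2 transcripts of at least 5%. Intervals are the estimate ± 1.96 SE. Exact permutation tests used scipy 1.17.1. Log2 CPM for these and for likeness had a prior count of 2, and likeness was sought among 12864 genes with a mean of at least 1. Scripts were tested on simulated data.

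The 9 genes, the 16 lists and the tests were chosen with earlier results of these data known. Every list gene named is among the 3 called higher or 3 called lower with the largest change in MI, apart from Lyve1, Tie1 and Gp1bb, named after their values were seen. Alternatives were DESeq2 1.42.0, other scalings and filters, and left-out libraries; summed TPM and the shares of coding forms were added after seeing the data.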

Additional observations from a re-analysis of the deposited data

Results flagged for a closer look

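In 48 groups of 4 libraries tested for a value far from the others, chance gives a flag in about 1 of 20, and 1 was found: Nrp1 in IR replicate 1, at 148 CPM, below the other IR libraries at 163, 163 and 166 CPM. The difference of the Flt4 responses, 1.09 in log2, stands out because it passed the direct test between MI and IR (adjusted p = 0.0245 in edgeR's quasi-likelihood test), with Flt4 higher in 4 of 4 MI libraries than in all MISham libraries and overlapping in IR.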

How the results depend on the processing

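Vegfa, Vegfb, Vegfc, Pgf and Nrp2 kept their direction and call under all 19 alternatives of each comparison, as did Flt4 in MI and Flt1 and Kdr in IR, but their sizes moved: in MI -1.46 to -0.61 for Vegfa, -2.26 to -1.38 for Vegfb, 0.47 to 1.10 for Vegfc and 0.95 to 1.64 for Nrp2, and in IR -1.69 to -0.81, -2.06 to -1.03, 0.50 to 1.25 and 0.65 to 1.26 in that order of genes, with -1.19 to -0.39 for Flt1 and -1.27 to -0.33 for Kdr. The number of the 9 genes called lower in MI was 3 with scaling by library size alone and 2 on summed TPM, where 5 were called higher in IR. Both scalings also moved the median gene upward, to 0.393 in MI and 0.323 in IR by library size alone. On summed TPM the median gene was at 0.703 in MI and 0.575 in IR. The number called higher in the difference of responses was 2 with DESeq2, 2 without both MISham replicates 1 and 3, 3 without both IR replicates 1 and 3, 0 on summed TPM, and 0 to 3 when single libraries were left out. Values turned on summed TPM for Flt1 in MI (0.32), for Flt4 in IR (0.51) and for Nrp1 (0.47 in each), and with library size alone for Nrp1 in MI (0.08) and IR (0.11) and Flt4 in IR (0.23). The number of transcripts called higher in MI was 2 with no filter on low TPM and 2 to 4 without single libraries. In IR, differences near 0 changed sign: Flt4 without single libraries (-0.19 to 0.04, positive without IR replicate 2), Flt4 relative to Pecam1, Cdh5 and Tie1 alone (-0.09), Nrp1 relative to the median marker (0.12) or without single libraries (-0.08 to 0.07), and Flt1 minus Kdr without single libraries (-0.06 to 0.09). The cause was not tested. With a replicate block, the counts called were 4 and 5 in MI and 3 and 4 in IR, where Nrp1 was lost (-0.18, adjusted p = 0.0552), and 1 in the difference; same-numbered libraries correlated at -0.221 to 0.15 and share only a number. Left-out libraries give exact permutation p of at least 0.0571 and 4 pairs at least 0.125, so these settings say nothing about the permutation calls.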
